A study of Mus musculus with 2 samples.

Results

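Claudins are the membrane proteins that form the strands of tight junctions, the seals that join neighbouring epithelial cells near their apical side. Each claudin sets how tight the seal is or which ions may pass, and the mix of claudins in a cell changes as epithelia develop. In the pituitary, the stem cells are epithelial and line the cleft between the lobes or lie among the endocrine cells of the anterior lobe. Here 10 claudin genes, *Cldn1*, *Cldn3*, *Cldn4*, *Cldn5*, *Cldn6*, *Cldn7*, *Cldn9*, *Cldn10*, *Cldn11* and *Cldn12*, were taken by symbol from the 31055 features of the count tables, which list 33 claudin genes in all.

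The cells came from pituitaries of *Sox9iresGFP/+* mice at postnatal day 3, in which a GFP reporter marks cells that express *Sox9*. The GFP protein is still present for a time in cells that no longer make SOX9, and such daughter cells were therefore sorted together with the stem cells. One pool of 3 male (XY) pituitaries and one pool of 3 female (XX) pituitaries each gave 1 droplet library, and both sexes carry the same genotype with no treatment. With 1 library per sex no test between libraries or groups of cells was made, and sex cannot be told apart from library. All intervals are 95% intervals of counting error alone.

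After filtering, 10410 male and 5711 female cells remained, with medians of 8902 and 9789 unique molecular identifiers (UMIs, counted mRNA molecules) per cell. The libraries shared 19 barcodes. Cells were grouped by raw UMIs of marker genes, none of them a claudin. Stem-like cells had at least 2 *Sox2* UMIs, no *Lef1* or *Pou1f1* and at most low counts of other types' markers, and numbered 3245 male and 3409 female cells. Of these, 646 male and 1256 female cells with at least 2 *Ednrb* UMIs were called Ednrb-rich, after a marker of the stem cells along the cleft. Another 1229 male and 891 female cells with no *Ednrb* and at least 3 *Aldh1a2* UMIs were called Aldh1a2-rich, after a marker of those in the anterior lobe. Differentiating-like cells (763 male, 534 female) had at least 2 *Lef1* UMIs besides *Sox2*, Pou1f1-lineage cells (749 and 270) at least 2 *Pou1f1* UMIs, melanotroph-like cells (222 and 112) at least 50 *Pomc* UMIs with *Pax7* or *Pcsk2*, and mesenchymal-like cells (132 and 65) at least 20 collagen and *Dcn* UMIs without *Sox2* or *Pitx1*. Gonadotroph-like cells numbered 235 in the male but 19 in the female library, so a wider gate on *Cga* with *Foxl2* or gonadotroph receptor and hormone genes (597 and 80 cells) was added after this was seen.

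Both libraries are labelled as stem cells, but 31.2% of male and 59.7% of female cells met the stem-like gate, and 48.5% and 22.7% met none. Of the cells in no gate, 2805 of 5046 male but 101 of 1294 female cells had under 3000 UMIs. Gates need marker UMIs, so these shares do not compare the libraries at equal depth. Of markers that no gate uses, 4 of 5 stem markers, among them *Sox9*, *Cd9* and *Hes1*, were highest in stem-like cells and 6 of 6 mesenchymal markers in mesenchymal-like cells, in both libraries. The exceptions were *S100a6*, highest in mesenchymal-like cells, the differentiation marker *Neurod4*, the gonadotroph markers *Gata2* and *Foxp2*, and in the female library the melanotroph marker *Pcsk1*. The gonadotroph markers were checked in the first, stricter gate and not in the wider one. *Foxl2*, also among those checked, helps define the wider gate and so cannot check its name. Levels are in CPM, the UMIs of a gene per 1000000 UMIs of the pooled cells. Since reads come from the 3′ ends of mRNAs, each gene is compared with itself between groups of cells and not with other genes.

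Positions are on GRCm38 (GENCODE vM21). *Cldn4* (chr5:134945119-134946934, minus strand) and *Cldn3* (chr5:134986214-134987472, plus strand) are intronless neighbours 39279 bases apart. *Cldn6* (chr17:23679249-23682446, plus strand) and *Cldn9* (chr17:23682584-23684026, minus strand) converge, with 137 bases between their 3′ ends. *Cldn7* is at chr11:69964779-69967885, *Cldn10* at chr14:118787908-118875489, *Cldn11* at chr3:31149920-31164324, *Cldn12* at chr5:5489537-5514958, *Cldn5* at chr16:18776847-18778262 and *Cldn1* at chr16:26356642-26371841. No stretch of 25 bases in the last 500 bases of their transcripts was shared between a member and any other claudin gene. *Wbscr25* overlaps *Cldn3* on the other strand and had 208 male and 261 female UMIs, against 32749 and 28582 of *Cldn3*. Whether strand was used in counting is not given in the sources used here.

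The 250 bases upstream of a start are printed for 5 members that stand for the patterns described next: *Cldn3*, *Cldn4* and *Cldn7* were higher in Ednrb-rich cells, *Cldn10* in Aldh1a2-rich cells and *Cldn11* in mesenchymal-like cells. They are from RefSeq (GRCm38.p6) and read 5′ to 3′ towards the gene. RefSeq windows were matched for 9 members, and *Cldn9* was the one without. Capitals mark matches, on either strand, to the GC box GGGCGG or the E-box CAGGTG.
*Cldn3*, chr5:134985964-134986213, + strand: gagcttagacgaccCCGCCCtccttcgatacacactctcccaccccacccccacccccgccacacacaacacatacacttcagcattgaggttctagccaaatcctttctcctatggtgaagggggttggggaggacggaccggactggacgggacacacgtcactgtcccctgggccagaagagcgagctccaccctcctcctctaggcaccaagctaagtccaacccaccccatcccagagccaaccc
*Cldn4*, chr5:134946935-134947184, - strand: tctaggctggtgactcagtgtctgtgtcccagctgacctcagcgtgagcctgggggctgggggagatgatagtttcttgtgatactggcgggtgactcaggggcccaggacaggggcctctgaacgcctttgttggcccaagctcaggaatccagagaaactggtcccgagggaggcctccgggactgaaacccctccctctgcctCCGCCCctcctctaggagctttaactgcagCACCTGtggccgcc
*Cldn7*, chr11:69964529-69964778, + strand: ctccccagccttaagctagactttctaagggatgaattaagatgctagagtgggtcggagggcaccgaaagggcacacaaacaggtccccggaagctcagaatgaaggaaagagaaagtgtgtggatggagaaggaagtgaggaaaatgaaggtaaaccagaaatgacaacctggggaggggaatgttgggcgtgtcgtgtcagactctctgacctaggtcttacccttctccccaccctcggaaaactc
*Cldn10*, chr14:118787621-118787870, + strand: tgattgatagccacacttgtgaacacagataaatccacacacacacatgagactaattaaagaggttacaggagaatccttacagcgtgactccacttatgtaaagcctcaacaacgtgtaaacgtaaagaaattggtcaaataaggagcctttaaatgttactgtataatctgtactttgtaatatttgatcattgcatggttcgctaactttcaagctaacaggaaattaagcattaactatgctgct
*Cldn11*, chr3:31149670-31149919, + strand: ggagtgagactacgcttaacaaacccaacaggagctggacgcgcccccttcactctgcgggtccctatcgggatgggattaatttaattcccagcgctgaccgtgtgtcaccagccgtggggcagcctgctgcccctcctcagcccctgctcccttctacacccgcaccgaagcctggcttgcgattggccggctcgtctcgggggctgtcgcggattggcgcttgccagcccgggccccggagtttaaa

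*Cldn3* held 1 GC box, and *Cldn4* 1 GC box and 1 E-box close to the start, with no overlap between matches. *Cldn7* and *Cldn10* have another window each in the RefSeq table, at later starts, which is not printed; that of *Cldn7* (chr11:69965171-69965420) held 2 E-boxes and 1 GC box, and that of *Cldn10* (chr14:118854700-118854949) 3 GC boxes. Over the 13 windows of the 9 members, of which some overlap each other, a GC box was found in 9 and the E-box in 3. In all 32851 windows of this length 32.7% held a GC box and 17.2% the E-box. AACCNGTT, the type of site that grainyhead-like factors bind, was found in 1 member window, that of *Cldn5*, against 1.79% of all windows. TATAAA and CTTTGA were in none of the member windows, against 12.4% and 13.8% of all. These are matches of letters, not sites shown to be used.

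Of the epithelial groups, stem-like cells had the highest summed level of the family, and among them the Ednrb-rich ones. The 10 members together made up 913 CPM (904 to 922) in male and 1215 CPM (1204 to 1227) in female stem-like cells. In Ednrb-rich cells the sum was 1259 and 1564 CPM, and in Aldh1a2-rich cells 692 and 837 CPM. It was 778 and 815 CPM in differentiating-like cells, 514 and 589.6 in Pou1f1-lineage cells, and 329.7 and 464 in melanotroph-like cells. Mesenchymal-like cells came to 667 and 774 CPM, nearly all of it *Cldn11*. With every cell drawn down to 5000 UMIs, an Ednrb-rich cell held UMIs of 3.04 members on average among males and 3.27 among females, an Aldh1a2-rich cell 2.09 and 2.38, and a melanotroph-like cell 1.24 and 1.5.

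**Figure D1:**
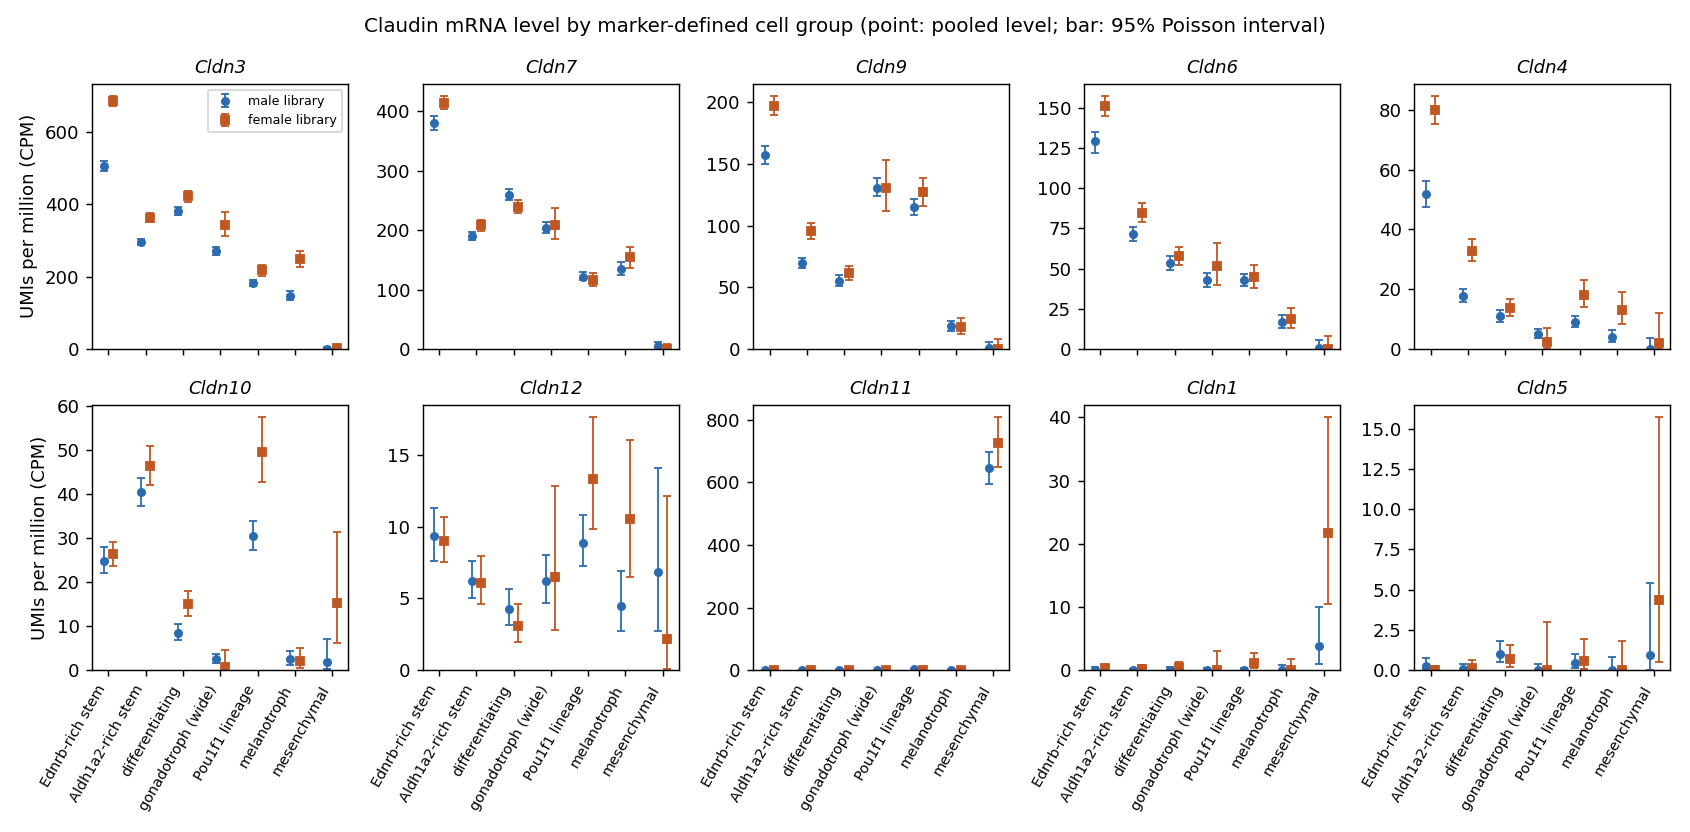
Level of each of the 10 claudins (y axis, CPM, each panel with its own scale from 0) in 7 groups of cells (x axis), for the male (circles) and female (squares) library, with 95% Poisson intervals as bars. *Cldn3*, *Cldn4*, *Cldn6*, *Cldn7* and *Cldn9* are highest in Ednrb-rich cells in both libraries, while *Cldn11* stands at 645 and 726 CPM in mesenchymal-like cells and near 0 elsewhere.

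The first comparison was between the Ednrb-rich and Aldh1a2-rich stem-like cells. These are dissociated cells split by marker UMIs, not by place, and the Ednrb-rich cells also held *Aldh1a2*, at 629 CPM (male) and 429 CPM (female), against 918 and 858 CPM in the Aldh1a2-rich cells. The 5 sealing-type and epithelial claudins *Cldn3*, *Cldn4*, *Cldn6*, *Cldn7* and *Cldn9* were all higher in Ednrb-rich than in Aldh1a2-rich cells in both libraries, and *Cldn10* was lower. *Cldn3*, a claudin that tightens the seal, was at 505 CPM (492 to 519) against 295 CPM (287 to 304) in the male library. In the female library it was at 686 CPM (672 to 699) against 363 CPM (351 to 375). The intervals of both states were apart in each library, with ratios of 1.71 and 1.89.

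*Cldn4*, also a barrier claudin and a neighbour of *Cldn3* in the genome, showed the widest ratio. Male cells had 51.7 CPM (47.6 to 56.1) in the Ednrb-rich and 17.7 CPM (15.7 to 20) in the Aldh1a2-rich state. Female cells had 79.8 CPM (75.2 to 84.5) and 32.9 CPM (29.3 to 36.8). The ratios were 2.81 (2.32 to 3.42) and 2.38 (2.02 to 2.83), after adding 1 CPM to both sides as in all ratios here. *Cldn9*, which is known for its part in the sensory epithelium of the inner ear, stood at 157 against 69.8 CPM in the male and 197 against 95.7 CPM in the female library. That is 2.23-fold (2.01 to 2.48) and 2.05-fold (1.85 to 2.27). *Cldn4* and *Cldn9* were the members past 2-fold in both libraries. Male Ednrb-rich levels moved with thinning: with cells drawn to 5000 UMIs before gating, *Cldn4* was at 112 CPM (ratio of 4.90), *Cldn3* at 768, *Cldn6* at 195 and *Cldn9* at 264 CPM.

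*Cldn7*, a partner of the adhesion molecule EpCAM, was at 380.3 against 189.9 CPM in male and 414 against 208 CPM in female cells, with ratios of 2.0 and 1.99, just short of the limit before rounding. *Cldn6*, a claudin of embryonic epithelia, was at 129 against 71.4 CPM and at 151 against 84.6 CPM, with ratios of 1.79 and 1.78. *Cldn10* forms ion-selective pores rather than a seal, and its order was the opposite. It stood at 24.9 CPM (22.1 to 28.0) in Ednrb-rich and 40.4 CPM (37.3 to 43.6) in Aldh1a2-rich male cells, and at 26.3 (23.7 to 29.1) and 46.3 CPM (42.0 to 50.9) in female cells. *Cldn12* was at 9.33 against 6.21 CPM and 9.01 against 6.10 CPM, with intervals that overlapped in the female library, and *Cldn11* at 1.33 CPM or less in both states.

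Of the 10 members, 6 entered this comparison with a mean level of at least 10 CPM, and 2 were higher by at least 2-fold in both libraries, where 0.540% of the 8511 genes entered were; none was lower, against 0.211%. The median log2 ratio of the 6 members was 0.92 and that of all genes entered 0.06. Ednrb-rich male cells had more UMIs than Aldh1a2-rich ones (medians of 12370 and 10618) and more cycling cells (33.3% and 22.1% with at least 2 UMIs of *Mki67* and *Top2a*). In the female library these medians were 9485 and 9480, and the cycling shares 20.4% and 13.6%. Without cycling cells 3 members were higher past 2-fold, *Cldn4*, *Cldn7* and *Cldn9*, as were 72 of 8408 genes. With cells drawn to 5000 UMIs before gating, 5 were, *Cldn3*, *Cldn4*, *Cldn6*, *Cldn7* and *Cldn9*, as were 78 of 8511 genes, against 46 of 8511 with all UMIs.

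**Figure D2:**
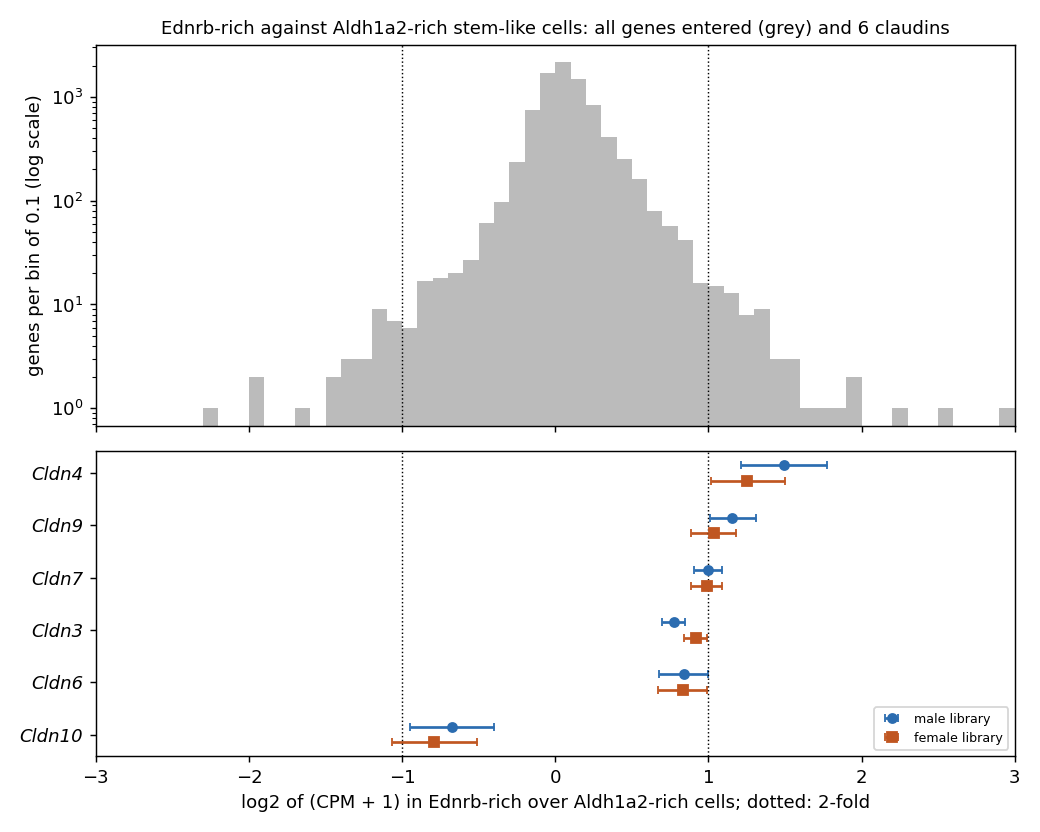
Upper panel: number of genes (log scale) by mean log2 ratio of Ednrb-rich over Aldh1a2-rich stem-like cells, for the 8511 genes entered, values beyond 3 being placed in the end bins. Lower panel: the same ratio of 6 claudins in the male (circles) and female (squares) library with its interval as a bar; *Cldn4* and *Cldn9* lie past the dotted 2-fold line in both, and *Cldn10* is the one member below 0.

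The same order appeared when all stem-like cells, drawn to 5000 UMIs each, were divided by their number of *Ednrb* UMIs. From 0 to 1, 2 to 3, and 4 or more *Ednrb* UMIs, *Cldn4* went from 24.5 to 46.5, 101 and 161 CPM in the male and from 41.5 to 59.2, 99.2 and 135 CPM in the female library. *Cldn9* went from 85.3 to 151, 242 and 307 CPM in the male, and from 111 to 180.3, 221 and 297 CPM in the female library. *Cldn3* reached 936 CPM (826 to 1056) and 983 CPM (919.8 to 1049) in the highest bin, from 360.1 and 462 CPM in the lowest. *Cldn6* and *Cldn7* were likewise higher in each bin than in the one before in both libraries, though among male cells the intervals of the upper pair of bins overlapped for *Cldn4*, *Cldn7* and *Cldn9*.

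*Cldn10* did not follow this order. It was at 38.7 CPM (35.0 to 42.6) without *Ednrb* and at 20.1 CPM (12.1 to 31.4) with 2 to 3 UMIs in the male library. In the female library it was at 37.6 CPM (33.8 to 41.7) without *Ednrb*, 29.2 CPM (23.0 to 36.6) with 2 to 3 and 53.0 CPM (39.2 to 70.0) with 4 or more UMIs. The highest bin held 56 male and 185 female cells. These bins draw on the same cells as the comparison of the states and are no separate evidence.

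**Figure D3:**
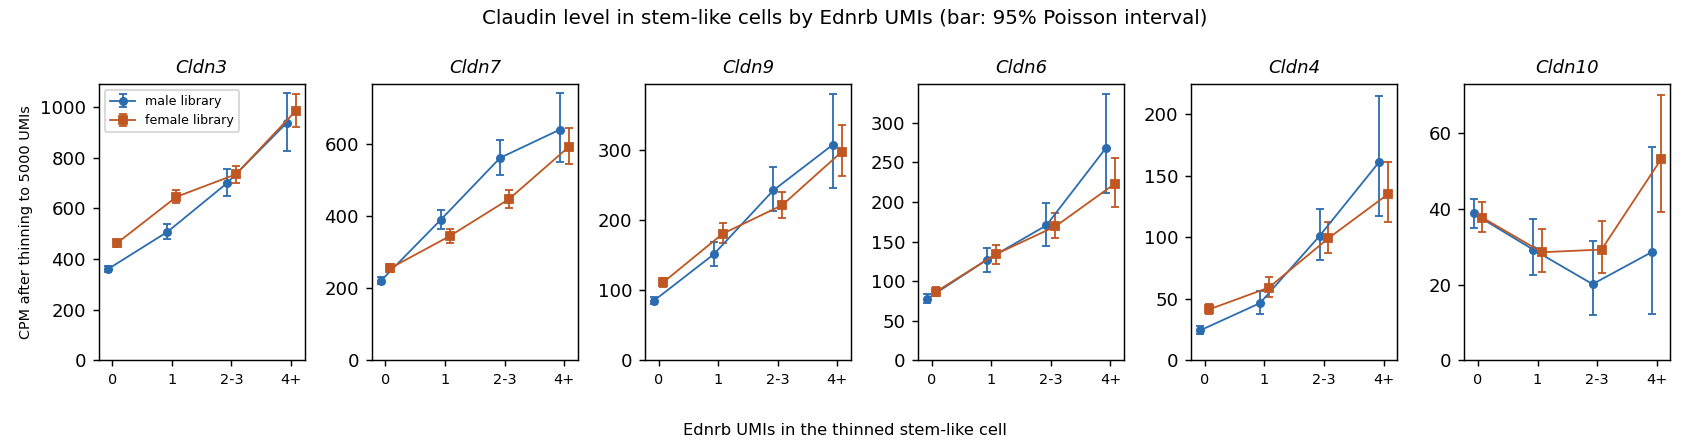
Level of 6 claudins (y axis, CPM after thinning) in stem-like cells with 0, 1, 2 to 3 and 4 or more *Ednrb* UMIs (x axis), male (circles) and female (squares), bars being 95% Poisson intervals. All but *Cldn10* are higher in each bin than in the one before.

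The stem-like cells were next compared with *Lef1*-positive differentiating-like cells. *Cldn4* and *Cldn10* were higher in stem-like cells by more than 2-fold in both libraries. *Cldn4* stood at 29.5 CPM (27.8 to 31.2) in stem-like and 10.9 CPM (9.12 to 13) in differentiating-like male cells, and at 54.7 (52.3 to 57.1) and 13.7 CPM (11.2 to 16.6) in female cells. *Cldn10* was at 32.8 CPM in the stem-like cells of each library, against 8.54 CPM (6.95 to 10.4) and 15 CPM (12.4 to 18.1). *Cldn9* was 1.81-fold and 2.36-fold and *Cldn6* 1.68-fold and 1.96-fold higher in stem-like cells. *Cldn3* and *Cldn7* were near equal in the male library, with ratios of 1.01 (0.968 to 1.06) and 1.02 (0.963 to 1.07), and 1.29-fold and 1.32-fold higher in female stem-like cells. So 2 of the 6 members entered were higher in both libraries and none lower, where 8.84% and 3.48% of 8454 genes were.

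Differentiating-like cells were above Aldh1a2-rich cells for *Cldn3*, at 383 against 295 CPM in the male and 423 against 363 CPM in the female library. *Cldn7* showed this order too, at 259.7 against 189.9 and 239.6 against 208 CPM. In cells with the later markers *Shh*, *Smoc2* and *Pou3f4* (273 male and 166 female cells), *Cldn3* was at 363 and 390.1 CPM, *Cldn7* at 269 and 255 CPM, *Cldn4* at 8.40 and 9.41 CPM and *Cldn10* at 6.92 and 6.84 CPM. Cells with the early markers *Cdkn1a* and *Dll1* numbered 44 and 39 and were only counted.

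In the Pou1f1 lineage, which gives somatotrophs, lactotrophs and thyrotrophs, 4 members were lower than in stem-like cells by more than 2-fold in both libraries, while *Cldn9* and *Cldn10* were not. *Cldn3* was at 183 CPM (175 to 191) and 218 CPM (203 to 233), against 388 and 544 CPM in stem-like cells. *Cldn7* was at 122 and 116 CPM, against 264 and 316 CPM. *Cldn6* was at 42.6 and 44.7 CPM and *Cldn4* at 8.97 and 18.2 CPM.

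*Cldn9* stood at 115 CPM (109 to 122) in male and 127 CPM (116 to 139) in female Pou1f1-lineage cells, against 101 and 146 CPM in stem-like cells, above the stem-like level in one library and below it in the other. *Cldn10*, at 30.5 CPM (27.4 to 33.8) in male and 49.6 CPM (42.7 to 57.4) in female cells, came from few cells: at 5000 UMIs a *Cldn10* UMI was found in 5.86% and 9.43% of Pou1f1-lineage cells, against 13.6% and 13% of stem-like cells, and its level was 32.5 and 51.2 CPM without the cells that Scrublet marked as doublets (11.7% and 7.41% of the lineage). The members higher in stem-like cells were thus 4 of 6, against 7.26% of 8691 genes, and none was lower, against 4.90%.

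Melanotroph-like cells, the *Pomc*-expressing cells of the intermediate lobe, had low levels of several claudins. *Cldn9* had 18.4 CPM (14.6 to 22.8) in male and 18.0 CPM (12.6 to 24.9) in female cells, the lowest of the endocrine groups in both libraries. *Cldn6* was at 17.0 and 18.5 CPM, *Cldn10* at 2.47 and 2.0 CPM, and *Cldn4* at 4.04 CPM (2.39 to 6.38) and 13 CPM (8.47 to 19). *Cldn7* was at 135 and 154 CPM, a ratio of stem-like to melanotroph-like cells of 1.95 and 2.05. *Cldn3* was at 148 CPM (137 to 159.6) and 248 CPM (227 to 271), with intervals that were apart.

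Of the 6 members entered, 5 were higher in stem-like than in melanotroph-like cells by 2-fold or more in both libraries, where 13.8% of 8419 genes were, and none lower, where 6.56% were. Among the 5, *Cldn4* and *Cldn10* passed the limit on mean level through the stem-like cells alone, so this count only describes them. *Pomc* alone made up 262364 CPM in male and 134482 CPM in female melanotroph-like cells. With hormone and mitochondrial genes left out of the total, 4 members were past 2-fold, *Cldn3* no longer among them. Over all genes this scaling moved the counts from 1162 higher and 552 lower to 886 and 903.

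The wider gonadotroph-like gate gave a different set again. *Cldn9* stood at 131 CPM in each library (124 to 139 among male and 112 to 153 among female cells), above its level in differentiating-like cells (55.4 and 61.3 CPM). *Cldn10* was at 2.5 CPM (1.58 to 3.75) and 0.815 CPM (0.0206 to 4.54, from 1 UMI), and *Cldn4* at 4.99 CPM (3.65 to 6.66) and 2.45 CPM (0.504 to 7.15, from 3 UMIs). *Cldn3* was at 270.2 and 344 CPM and *Cldn7* at 204 and 209 CPM, each within 1.58-fold of stem-like cells.

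*Cldn4*, *Cldn6* and *Cldn10* were higher in stem-like cells past 2-fold in both libraries, 3 of 6 members against 10.5% of 8707 genes. None was lower, against 7.71%. Of these, *Cldn4* and *Cldn10* passed the 10 CPM limit through the stem-like cells alone, as both did in the comparison with melanotroph-like cells. In the 235 male cells of the first, stricter gate, *Cldn9* was at 130.2 CPM and *Cldn10* at 2.27 CPM. The 19 female cells of that gate held 54 *Cldn9*, 1 *Cldn10* and no *Cldn4* UMIs.

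Mesenchymal-like cells were set apart by *Cldn11*, the claudin of myelin sheaths, Sertoli cells and meningeal cells. It was at 645 CPM (596 to 696) in the male and 726 CPM (650.0 to 808) in the female library. Its UMIs were found in 93.5% and 94.3% of cells at 5000 UMIs. The other groups compared had at most 2.48 CPM of *Cldn11*. *Cldn3*, *Cldn4*, *Cldn6*, *Cldn7* and *Cldn9* were at 5.85 CPM or less in the mesenchymal-like cells of each library. *Cldn10* was at 1.95 CPM (2 UMIs) in male but 15.2 CPM (6.12 to 31.3, 7 UMIs) in female mesenchymal-like cells, against 32.8 CPM in stem-like cells. *Cldn3*, for example, had 1 UMI in each library, and its UMIs were found at 5000 UMIs per cell in 0 of 108 male and 0 of 53 female cells, which allows shares of up to 2.78% and 5.66% (3 counts; the exact two-sided upper bounds are 3.36% and 6.72%), against 78.8% and 86.5% of stem-like cells (88.6% and 95.6% before thinning). Before thinning, mesenchymal-like cells had medians of 7086 and 6782 UMIs and stem-like cells of 10019 and 9268. In turn, a *Cldn11* UMI was found in 0.424% and 0.272% of stem-like cells at 5000 UMIs.

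Against stem-like cells 6 of the 7 members entered were past 2-fold higher, where 9.71% of 8746 genes were, and *Cldn11* was lower, where 9.84% were. The 7 members passed the 10 CPM limit through the group in which they were high, so these counts only describe them. With a looser gate that allows *Emcn* (462 and 249 cells, added after *Emcn* was found in most collagen-rich cells) *Cldn11* was at 579 and 676 CPM. The same 6 and 1 members passed, against 10.2% and 10.5% of 8769 genes. This gate held 56.3% of all male and 59.9% of all female *Cldn11* UMIs.

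*Cldn12*, a claudin linked to calcium transport, was low throughout, between 0.855 and 13.3 CPM over the groups compared, and neighbours in its order had overlapping intervals in both libraries. *Cldn1*, the claudin of the skin barrier, had 27 male and 41 female UMIs in all, and *Cldn5*, the claudin of endothelial cells, 62 and 39. *Cldn1* was highest in mesenchymal-like cells, at 3.90 CPM (1.06 to 9.99, from 4 UMIs) and 21.7 CPM (10.4 to 40.0, from 10 UMIs). None of these 3 genes entered a comparison.

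**Figure D4:**
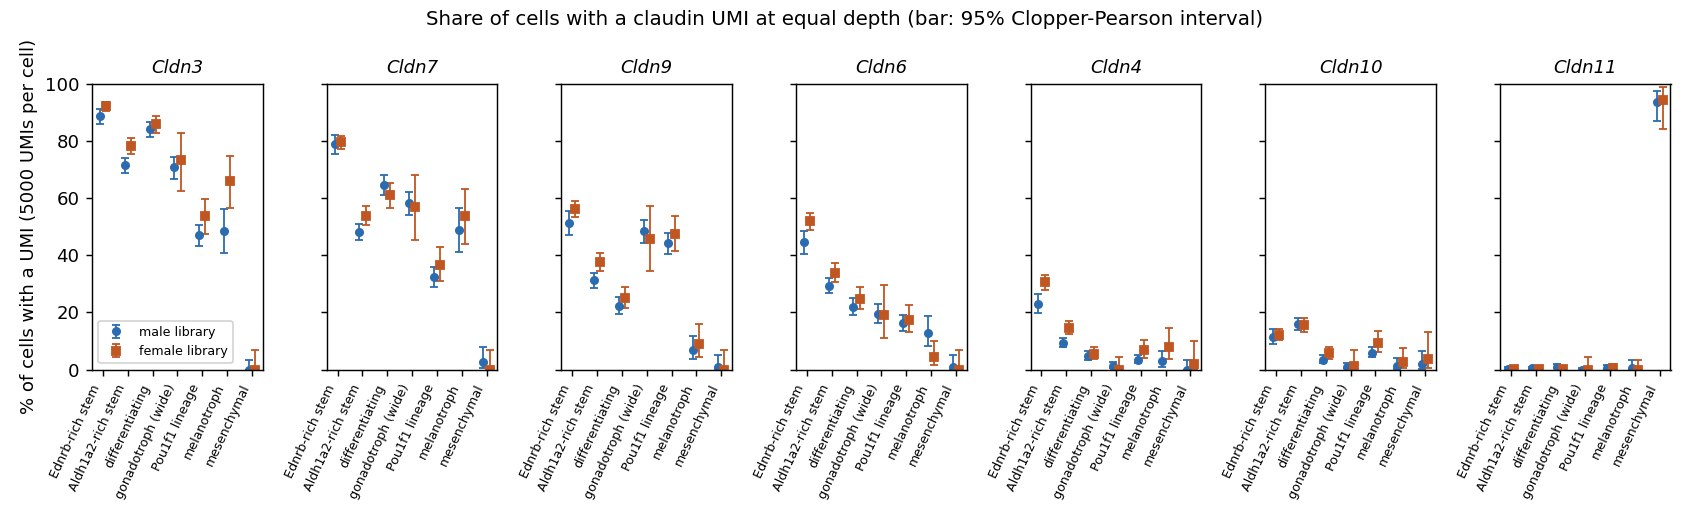
Share of cells with at least 1 UMI (y axis, %) of 7 claudins after each cell was drawn to 5000 UMIs, in 7 groups of cells (x axis), male (circles) and female (squares), with 95% Clopper-Pearson intervals as bars. *Cldn9* is found in 44.1% to 48.3% of gonadotroph-like and Pou1f1-lineage cells but in 6.98% and 8.93% of melanotroph-like cells.

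With gates on raw UMIs, female cells had higher levels than male cells for all 6 members entered in each state. At equal depth, 4 of them were no longer higher in female Ednrb-rich cells. In Ednrb-rich cells the female to male ratio was 1.36 (1.30 to 1.42) for *Cldn3*, 1.53 (1.33 to 1.76) for *Cldn4*, 1.25 for *Cldn9*, 1.17 for *Cldn6*, 1.09 for *Cldn7* and 1.06 (0.854 to 1.31) for *Cldn10*. In Aldh1a2-rich cells it ran from 1.09 for *Cldn7* to 1.81 (1.44 to 2.26) for *Cldn4*. None reached 2-fold, where 0.174% of 8625 genes were higher in female and 0.325% higher in male Ednrb-rich cells. For 8367 genes in Aldh1a2-rich cells these shares were 0.120% and 0.215%. The median log2 ratio of the members was 0.28 and 0.27, and that of all genes entered -0.04 in both states.

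The Ednrb-rich gate held different levels of its own marker, with *Ednrb* at 220.2 CPM among male and 373 CPM among female cells. With cells drawn to 5000 UMIs before gating, *Cldn4* was at 112 CPM in male and 111 CPM in female Ednrb-rich cells, *Cldn6* at 195 and 185, *Cldn7* at 563 and 489, and *Cldn9* at 264 and 243 CPM. *Cldn3* (768 and 807 CPM) and *Cldn10* (26.5 and 34.0 CPM) stayed higher in female cells. In stem-like cells with 2 to 3 *Ednrb* UMIs at that depth, *Cldn7* was at 561 CPM (514 to 611) in male and 447 CPM (422 to 473) in female cells. For *Cldn4*, *Cldn6* and *Cldn9* the intervals of the libraries overlapped in that bin. In Aldh1a2-rich cells at equal depth only *Cldn10* was no longer higher in female cells, being near equal at 40.2 (male) and 39.3 CPM (female).

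Over pairs of members, the share of stem-like cells with UMIs of both lay between 0.905 and 1.44 times the product of the single shares. At 5000 UMIs, *Cldn3* and *Cldn7* UMIs were found together in 49.8% of male and 59.1% of female stem-like cells, 1.07 and 1.03 times the product of their shares. Of 15 pairs, the ratio was highest for *Cldn4* with *Cldn6*, at 1.44 and 1.27. It was lowest for *Cldn7* with *Cldn10* in both libraries, at 0.905 and 0.983. The larger single share of a pair sets an upper limit to this ratio, which is lower for widely found members such as *Cldn3*. The pairs are therefore not ranked on equal terms. Stem-like cells include both states, and within Ednrb-rich cells the ratio of *Cldn4* with *Cldn6* was 1.24 and 1.14.

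Over 16 points (8 groups of cells in 2 libraries, of which 3 points hold fewer than 50 cells), *Cldn3*, *Cldn6*, *Cldn7* and *Cldn9* had close correlations of log2 level with one another. Their Pearson r ran from 0.89 to 0.95. *Cldn4* correlated less closely with them, at r of 0.52 to 0.73, and had r of 0.67 with *Cldn10*. *Cldn11* had r of -0.96 with *Cldn3*. The points share libraries and cells of related types, and the mesenchymal-like points lie far from the rest, so these values are descriptions. Among 11745 genes, those most like *Cldn3* were *Kdf1*, *Tfrc* and *Wwc1* (r of 0.979 to 0.975). *Cldn7* was closest to *Wwc1*, *Epcam* and *Spint2* (0.983 to 0.973), *Cldn6* to *Krt8*, *Esrp1* and *Dsg2* (0.980 to 0.975), and *Cldn9* to *Spata13*, *2310030G06Rik* and *Stxbp2* (0.978 to 0.964). *Cldn4* was closest to *AV099323*, *Nectin4* and *Cers4* (0.948 to 0.943), *Cldn10* to *Lgr6*, *Insl6* and *Arl4d* (0.883 to 0.864), and *Cldn11* to *Col1a1*, *Itga8* and *Col6a1* (0.992 to 0.985).

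Of 22 other tight junction genes, chosen as partners of the claudins, 20 entered the comparison of the stem cell states and none was past 2-fold, with a median log2 ratio of 0.24. *Ocln*, which encodes the strand protein occludin, was at 62.6 against 43.2 CPM in male and 85.8 against 56.7 CPM in female cells. *Jam2*, an adhesion molecule at these junctions, was at 22.5 against 11.6 CPM and 22.6 against 11.3 CPM. *Epcam* was at 2111 against 2405 and 2122 against 2283 CPM, the one partner below equal in both libraries.

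Against differentiating-like cells, 2 of 17 partners were higher in stem-like cells past 2-fold, among them *St14*, the protease matriptase. Against Pou1f1-lineage cells 4 of 18 were, among them *Ocln*, *Jam2* and *St14*, and against melanotroph-like cells 10 of 18, none being lower past 2-fold. The shares of all genes higher in these 3 comparisons were 8.84%, 7.26% and 13.8%, so the first count is near its background. Against Pou1f1-lineage cells *Jam2* and *St14* passed the 10 CPM limit through the stem-like cells alone. So did several partners, *St14* among them, against melanotroph-like cells, and these counts only describe the partners. Against mesenchymal-like cells 10 of 18 partners were higher, among them *Ocln* and *Epcam*, and 2 were lower, *Cgnl1* and *Jam3*, where 9.71% and 9.84% of all genes were. Most of these, *Ocln* and *Cgnl1* among them, passed the 10 CPM limit only through the group in which they were high, so the counts only describe them. *Cgnl1* was at 3.24 against 88.8 CPM in the male and 2.71 against 67.4 CPM in the female library. Of 10 epithelial regulators, 5 entered the comparison of the stem cell states and none passed 2-fold. All 4 that entered against melanotroph-like cells did, where 13.8% of all genes did, including the splicing regulator *Esrp1* (30.3 against 13.2 and 26.2 against 9.98 CPM) and the transcription factor *Grhl2* (21.7 against 1.12 and 25.3 against 4.49 CPM). Most of the 4, *Grhl2* among them, passed the 10 CPM limit through the stem-like cells alone, so this count only describes them. Of 4 that entered, 1 was higher in stem-like than in differentiating-like cells, where 8.84% of all genes were. Against Pou1f1-lineage cells 2 of 4 were, where 7.26% of all genes were. *Grhl2*, among these, passed the 10 CPM limit through the stem-like cells alone, so this count too only describes them.

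Of the 23 claudin genes that are not members, 12 had no UMI and 3 reached 10 CPM in a group in both libraries. *Cldn23* was highest in Ednrb-rich cells, at 36.2 and 47.1 CPM, *Cldn8* in Aldh1a2-rich cells, at 40.0 and 46.7 CPM, and *Cldn34c1* in mesenchymal-like cells, at 13.7 and 19.6 CPM.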

How the data were processed

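Sorted SOX9iresGFP-positive cells, from 3 pituitaries per sex at P3, gave 1 10x 3′ library for each sex (the kit version is given differently by labels and methods). The authors ran Cell Ranger 3.0.2 on mm10 with the eGFP sequence added and deposited UMI counts per gene and barcode as whole numbers, without normalization. From 10569 male and 5796 female barcodes, those under 50 genes or with a mitochondrial share over 3 SD above the library mean were removed (159 and 85). This left 105883748 and 62830305 UMIs. Doublets were not removed; Scrublet (scanpy 1.11.5) marked cells for an alternative.

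Cells were gated on raw marker UMIs, and no cell fell in several main gates. A gate with fewer than 50 cells in a library entered no comparison, and any level given for one is a description. UMIs were summed per gate and library and scaled to CPM, with exact Poisson intervals. The limits of a ratio set the lower bound of one side against the upper bound of the other. A gene entered a comparison at a mean of 10 CPM and counted as past 2-fold where (CPM + 1) differed at least 2 times, in the same direction, in both libraries. Shares of cells used cells drawn to 5000 UMIs without replacement (seed 1), leaving out 3627 male and 287 female cells, with exact Clopper-Pearson intervals. The fold and interval steps were tested on simulated data, and the thinning step on cells of the female library. Alternatives were a minimum of 3000 UMIs per cell, thinning before gating, leaving out Scrublet-marked or cycling cells, doubled gate limits, totals without mitochondrial and hormone genes, the mean of cell CPM, no mitochondrial filter and a gene filter of 1 CPM.

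The text names all members, other claudins that reach 10 CPM in both libraries, partners and regulators from 2 lists, and for each member at 10 CPM the 3 genes with the highest correlation. The members, gates and lists were chosen with earlier results of these data known; *Cgnl1*, *Jam2* and the other partners given with values were picked after their values were seen. A few marker and partner genes are counted but not reported by name here. Python 3.11.15, numpy 2.4.6, scipy 1.17.1 and pandas 2.3.3 were used.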

Additional observations from a re-analysis of the deposited data

Results flagged for a closer look

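A few values stood apart and are given without explanation. *Cldn9* had opposite signs in the libraries, untested, in 2 comparisons. Stem-like cells were at 0.875 times the Pou1f1-lineage level among male and 1.15 times among female cells, and at 0.770 and 1.11 times the level of the wider gonadotroph-like gate. *Cldn10* also differed in sign against the Pou1f1 lineage, at 1.07 for male and 0.668 for female cells. None of these differences between libraries was tested.

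Signals outside the comparisons were found in groups too small to be compared. The 10 male pituicyte-like cells (*Nkx2-1* or *Rax* UMIs without *Pitx1*) held 167 *Cldn10* UMIs, 1291 CPM, with at least 1 in each of the 10 cells. The 2 female cells of this kind held none. *Cldn5* was at 248 CPM in 7 male and 430.3 CPM in 5 female endothelial-like cells, from 18 and 19 UMIs that lay in 2 cells of each library.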

How the results depend on the processing

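No paired analysis was possible because the results come from no test; groups of cells were compared within each library and both values given. Of 158 counts of members past 2-fold recomputed under other settings, 154 stayed within 1.5 times of the reported count. The count of members higher in Ednrb-rich than in Aldh1a2-rich cells went from 2 to 5 with cells drawn to 5000 UMIs before gating and to 5 with doubled gate limits; the cause was not tested. The ratio over 8 settings ran from 2.81 to 4.90 (male) and 2.28 to 3.70 (female) for *Cldn4*, and from 2.23 to 3.14 and 2.05 to 2.61 for *Cldn9*. *Cldn10* stayed lower, at 0.557 to 0.667 and 0.499 to 0.868. With the filter on low genes at 1 CPM, the members lower in stem-like than in mesenchymal-like cells went from 1 to 2, and from 1 to 2 for the looser gate, since *Cldn1* then entered.

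Over all genes the Ednrb-rich against Aldh1a2-rich counts of 46 higher and 18 lower became 78 and 49 with thinned cells, 90 and 39 with doubled limits, 72 and 34 without cycling cells and, lower only, 29 with the mean of cell CPM. A filter at 1 CPM, which lets in more genes, gave 94 and 41 there, and in stem-like cells against differentiating-like cells 1431 and 567 (from 747 and 294), Pou1f1-lineage cells 1036 and 1016 (from 631 and 426), melanotroph-like cells 2105 and 1109 (from 1162 and 552), mesenchymal-like cells 1883 and 1378 (from 849 and 861), the wider gonadotroph-like gate 1673 and 1247 (from 912 and 671) and the looser mesenchymal gate 1943 and 1545 (from 891 and 923). Female against male counts of 15 and 28 in Ednrb-rich cells became 44 and 68 with thinned cells and 40 and 68 at 1 CPM, with 17 lower without cycling cells; those of 10 and 18 in Aldh1a2-rich cells became 37 and 59 at 1 CPM, with 32 lower with thinned cells. No member was past 2-fold between the sexes in any setting. With thinned cells, *Cldn4*, *Cldn6*, *Cldn7* and *Cldn9* in Ednrb-rich and *Cldn10* in Aldh1a2-rich cells were no longer higher in the female library.

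Of 672 levels recomputed, 146 left their interval, 46 of them with thinned cells. Of those over 10 CPM, the widest moves were *Cldn4* in male Ednrb-rich cells, from 51.7 to 112 CPM with thinned cells and 81.1 without cycling cells, and *Cldn10* in female mesenchymal-like cells, from 15.2 to 5.94 CPM with thinned cells. The planned comparison with gonadotroph-like cells gave no value, since the female library held 19 such cells. The wider gate had too few female cells for a value with thinned cells or doubled limits. Depth limits *Cldn1*, *Cldn5* and *Cldn12* and all values in mesenchymal-like cells, where 3 UMIs are worth 2.93 CPM (male) and 6.52 CPM (female).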

Other observations

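*Cldn10* was unevenly spread over the Pou1f1-lineage cells, a pattern seen in the data and described without a test. In the male library 16 cells with at least 5 *Cldn10* UMIs held 67.2% of the *Cldn10* UMIs of the 749 cells, and one cell held 39. In the female library 14 such cells held 75.4% of those of the 270 cells. In stem-like cells, 33 male and 18 female cells with at least 5 UMIs held 16.3% and 11.3%. The Cldn10-rich Pou1f1-lineage cells had 70.4 and 371 CPM of *Gh*, against 16961 and 39985 CPM in Pou1f1-lineage cells without *Cldn10* UMIs. These *Gh* levels are pooled, so a small number of Gh-rich cells can set them. The lineage held 57 male and 27 female Gh-rich cells, besides 635 and 238 cells low in both *Gh* and *Prl*. A *Gh* comparison with those hormone-low cells alone was not made, so no loss of *Gh* in Cldn10-rich cells is shown. The *Pou1f1* level of the Cldn10-rich cells was 1453 and 687 CPM, against 932 and 761 CPM, and their *Sox2* level 189 and 356 CPM, against 132 and 118 CPM. Median UMIs per cell were 12406 and 11022, against 13339.5 and 12332. *Cldn3*, *Cldn4*, *Cldn6* and *Cldn7* were also higher in the Cldn10-rich cells, *Cldn4* at 63.0 against 6.65 CPM in the male and 39.5 against 15.9 CPM in the female library, and *Cldn3* at 337 against 169 and 361 against 204 CPM. *Cldn9* differed less, at 145 against 117 and 128 against 124 CPM. These claudin levels are likewise pooled, over 16 male and 14 female Cldn10-rich cells, so a small number of cells can set them. No intervals were computed for them, and doublets were not set apart.

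Within stem-like cells, the 6 claudins that entered the comparisons had lower levels in cycling cells, those with at least 2 UMIs of *Mki67* and *Top2a*. *Cldn4* stood at 16.8 CPM (14.7 to 19) in 726 cycling and 36.8 CPM (34.5 to 39.2) in 2519 other male cells, and at 29.6 (26.0 to 33.6) and 62.2 CPM (59.3 to 65.2) in 522 and 2887 female cells. *Cldn10* was at 22.6 against 38.7 and 16.8 against 37.6 CPM. *Cldn7* was at 248 against 273 CPM in the male and 314 against 316 CPM in the female library, where the intervals overlapped. Cycling cells had medians of 17316 and 13942 UMIs, against 9166 and 8824.

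Within the Pou1f1 lineage, 57 male Prl-rich and 57 male Gh-rich cells had 292 and 332 CPM of the 10 members together, against 563 CPM in 635 cells low in both hormones. In the female library 238 hormone-low cells had 652 CPM and 27 Gh-rich cells 199 CPM. The last value rests on 90 UMIs from a gate with fewer than 50 cells. Hormone UMIs, which are many in Gh-rich cells, were kept in these totals, and levels without them are not given here.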
